A study of Mus musculus with 8 samples.

Results

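Synaptic vesicle release was examined through 40 genes of the presynaptic machinery, chosen by name from 25834 genes in RNA-seq counts of mouse hippocampus. They comprise calcium sensors, SNARE proteins, vesicle proteins, active zone and priming proteins, complexins, Rab3 proteins with their effector rabphilin, vesicular glutamate transporters, and proteins of SNARE disassembly and endocytosis. The rule uses gene names and roles and no measured value, though the list was chosen with earlier results of these data known. There were 4 control and 4 SAP97-cKO hippocampi, each from a male mouse and each sequenced as 1 library. SAP97-cKO mice were Nestin-cre+/-; SAP97 fl/fl, so that Dlg1, the gene of the scaffold protein SAP97, was deleted by Cre under the Nestin promoter, which is active in neural progenitors and so reaches both neurons and glia. Controls were littermates that were Nes-cre+/-, SAP97 fl/fl or wild-type. The sources used here give an age of 2 months for tissue taken for protein blots and none for the sequenced samples as such. They do not give the genotype of each control library, and an effect of the Cre transgene alone cannot be told apart from the deletion where controls lacked it.

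At a presynaptic terminal, vesicles filled with transmitter dock at the active zone, where scaffold and priming proteins bring them close to calcium channels. The SNARE proteins of the vesicle and the plasma membrane zip together, complexins hold the assembled complex ready, and synaptotagmins trigger fusion when calcium enters. NSF and the SNAPs then take the SNARE complex apart, and dynamin, synaptojanin, amphiphysin and endophilin retrieve the membrane. Most transmitter release in the hippocampus is glutamatergic, from granule and pyramidal cells whose terminals load glutamate through VGLUT1.

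Libraries held 37388177 to 37426572 counts on genes, and the 40 genes took 1.90% to 2.27% of them. All 40 passed the filter on low counts, as did 16251 genes in all. Dlg1 had a mean normalized count (scaled for library size and composition) of 4338 ± 336 in controls and 2393 ± 470 in SAP97-cKO libraries (SD, n = 4 each), 55.2% of control, with no overlap of the groups. This count covers the whole gene, so it does not measure how completely the floxed segment was lost. The paper reports a far larger drop in reads on the exon it used to check the deletion. It also states that the protein was checked by blot in each animal before sequencing. Oligodendrocyte markers, summed over 10 genes, ranged from 225659 to 360946 normalized counts in controls and from 174704 to 316241 in SAP97-cKO libraries, with 10 of 10 lower on average. Meningeal fibroblast markers were lower in 10 of 10, though Dcn only at 99.5% of control. Of the 10, 5 were past a false discovery rate (FDR) of 0.25, as 0.295% of all genes tested were. Choroid plexus markers ranged from 6301 to 252587 in controls and from 3557 to 86982 in SAP97-cKO libraries, with 8 of 8 lower on average. Their median log2 fold change was -1.48, with none at an unadjusted p under 0.05. Neuron markers, also 10 genes, ranged from 152620 to 166850 and from 163486 to 179849, with 6 of 10 higher. Markers of dentate granule cells, CA1 and CA3 were above 0 in every library. Control replicate 3 stood apart in medial habenula genes: Chrna3, a nicotinic receptor subunit, was at 246.7 normalized counts there against 7.76 to 25.5 elsewhere. Control replicate 4 stood apart by transcript length: genes with exons of 7357 bases or more lay 0.40 log2 units below those of 2309 or fewer, relative to the mean of all libraries, where in the other 7 libraries they lay 0.00 to 0.12 above.

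Levels were compared between genes as CPM (counts scaled to a common library size) per kilobase of exon, written CPM/kb, since a longer transcript gives more reads. Snap25, the plasma membrane SNARE that contributes a pair of helices to the complex, had the highest control level, 408 ± 10.4 CPM/kb (SD, n = 4). Cplx2 followed at 329 ± 17.7, then Cplx1 at 250 ± 8.68, Dnm1 at 240 ± 24.1, Slc17a7 at 240 ± 18.6 and Vamp2 at 237 ± 14.7. The last 4 of these differed by less than their spread, so their order is not set by these libraries. The lowest levels were those of Syn3 at 0.737 ± 0.133, Unc13b at 1.73 ± 0.260 and Cplx3 at 2.71 ± 1.66 CPM/kb. Exon length here joins the exons of all annotated transcripts of a gene, and the place of Unc13b depends on it. Unc13b had 22746 such bases and a mean control count of 1472. Rims2 had 10389 bases and a mean of 1548, and was at 3.98 CPM/kb.

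Within the calcium sensors, Syt1 was highest at 166 ± 21.1 CPM/kb and Syt2 lowest at 8.02 ± 4.02 in controls. Among SNARE proteins, Vamp1 was lowest at 15.8 ± 3.52. Vesicle proteins ran from Syp, the vesicle membrane protein synaptophysin, at 165 ± 7.49 down to Syn3. Active zone proteins were lower as a group and ran from Bsn at 23.9 ± 6.34 to Unc13b, with Unc13a at 23.3 ± 4.60, which is within the spread of Bsn. In the Rab3 group Rab3a was highest at 99.0 ± 7.54 and Rab3b lowest at 12.5 ± 2.40. Slc17a7 stood far above Slc17a6, at 7.10 ± 2.67. Nsf at 153 ± 13.9 and Napa at 61.1 ± 2.41 bounded the SNARE disassembly genes, and Dnm1 and Sh3gl2 at 56.8 ± 4.33 bounded the endocytosis genes.

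**Figure D1:**
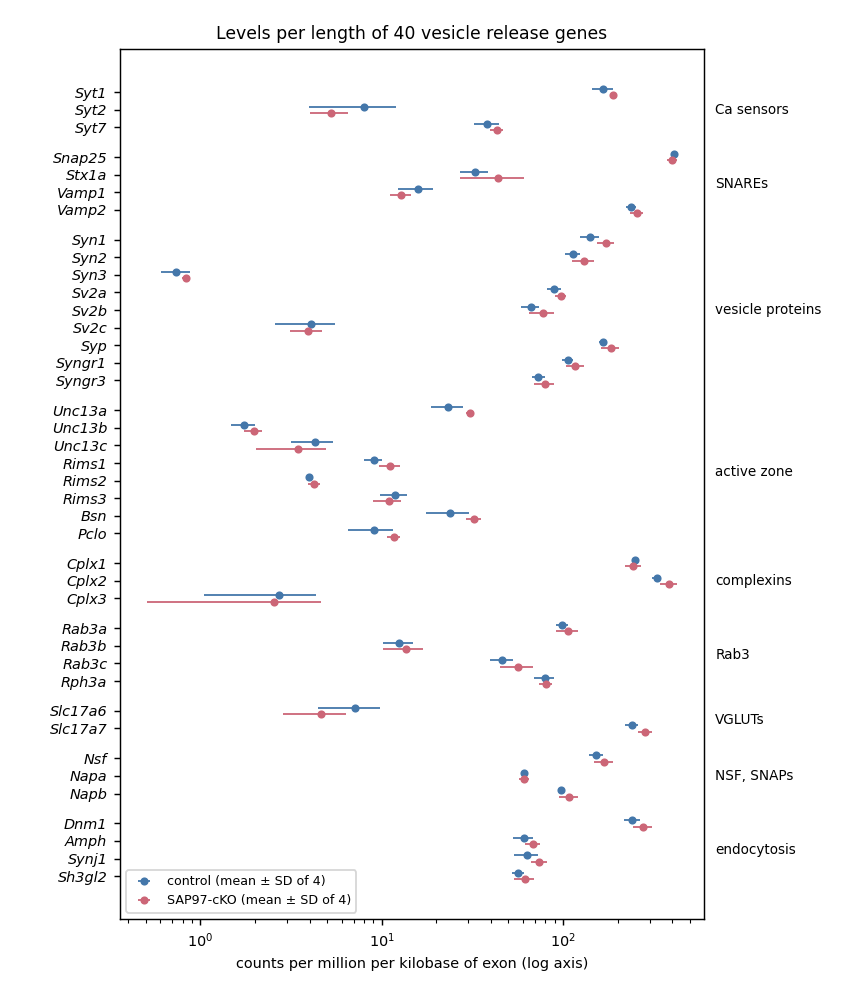
Level of each of the 40 genes in CPM per kilobase of exon on a log axis, grouped by role, with a point at the mean and a bar of 1 SD over the 4 libraries of each group, controls in blue and SAP97-cKO in red. Levels span from Syn3 at 0.737 to Snap25 at 408 CPM/kb in controls, and the bars of scarce genes such as Cplx3 (2.71 ± 1.66) are wide on this scale.

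Spread between mice was small for most abundant genes and large for some scarce ones. Snap25 had a coefficient of variation (SD over mean) of 2.55% in controls and 6.01% in SAP97-cKO libraries. For Cplx3, a complexin best known from retinal ribbon synapses, it was 61.2% and 80.2%, from counts between 95.5 and 604. For Syt2 it was 50.2% and 23.4%.

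Promoter letters are shown for 3 of the genes, picked out of 7 after their values were seen: Unc13a, which separated the groups, Bsn, with the highest fold change of the 40, and Syn1, with the smallest p of the vesicle proteins. RefSeq promoter windows (build GRCm38.p6) matched 34 of the 40 genes, with 45 windows. Printed are the bases within 250 upstream of the RefSeq start that lie outside the annotated gene, 5′ to 3′ on the minus strand of the chromosome, from which all 3 genes are read. Capitals mark a match on either strand to any of 8 motifs, also chosen with the values known.
Unc13a, chr8:71671758-71672007: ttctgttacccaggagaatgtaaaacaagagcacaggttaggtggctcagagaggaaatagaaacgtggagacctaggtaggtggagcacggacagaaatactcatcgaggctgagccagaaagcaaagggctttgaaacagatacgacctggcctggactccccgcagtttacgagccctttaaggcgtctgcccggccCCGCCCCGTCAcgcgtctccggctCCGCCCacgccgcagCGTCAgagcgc
Syn1, chrX:20921005-20921168: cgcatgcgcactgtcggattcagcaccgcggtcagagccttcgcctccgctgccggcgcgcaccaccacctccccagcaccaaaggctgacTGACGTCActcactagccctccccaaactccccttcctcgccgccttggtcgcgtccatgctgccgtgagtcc
Bsn, chr9:108190385-108190633: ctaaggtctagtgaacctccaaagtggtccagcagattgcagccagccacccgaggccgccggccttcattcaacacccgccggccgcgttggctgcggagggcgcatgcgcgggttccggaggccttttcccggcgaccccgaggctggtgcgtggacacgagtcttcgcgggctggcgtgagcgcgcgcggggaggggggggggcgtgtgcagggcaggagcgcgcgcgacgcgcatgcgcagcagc

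The windows of the 3 genes differed in these letters. Unc13a held the GC box GGGCGG at 2 places and the short cyclic AMP response element (CRE) TGACG at 2 places, all read on the opposite strand. Syn1 held the full CRE TGACGTCA, which contains the short form on each strand, and Bsn held no match to the 8 motifs. Over the 45 windows the full CRE was in 4.44% against 1.55% of all 32851 RefSeq windows, and the short form in 22.2% against 17.8%. The GC box was in 57.8% against 32.7%, the CCAAT box (CCAAT) in 26.7% against 33.8% and the TATA box (TATAAA) in 6.67% against 12.4%. The E-box CACGTG was in 11.1% against 6.02%, the EGR1 core GCGGGGGCG in 6.67% against 2.57%, and the RE1 consensus, with its 2 middle bases free, in 0 of 45 against 0.0213%. Both strands were searched, and only exact matches to the letters were counted. Under that rule the RE1 consensus was in just 7 of all 32851 windows. Its absence from the 45 windows therefore cannot show that they lack RE1 sites. Sites that vary from the consensus, in Syn1 or elsewhere, were not searched for. Median GC content was 60.8% in these windows against 52.4% in all, and the GC-rich motifs share that base composition.

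Comparing SAP97-cKO with control hippocampi asks whether transcripts of the release machinery differ when the scaffold is deleted. None of the 40 genes passed the FDR of 0.25 in edgeR's quasi-likelihood test (adjusted p from 0.353 to 0.997), against 0.295% of all genes tested. At an unadjusted p under 0.05 there were 6, all higher in SAP97-cKO libraries: Unc13a, Bsn, Rims1, Syn1, Cplx2 and Slc17a7. That is 15% of the 40, where 11.7% of all genes were called in either direction, 4.73% as higher and 7.01% as lower. Means were higher in 31 of 40 genes (77.5%), against 47.2% of all genes. The median log2 fold change was 0.14, against -0.01 over all genes, and single values ran from -0.62 to 0.43. Only Unc13a had groups that did not overlap, higher in SAP97-cKO libraries as 2.78% of all genes were. No member separated the groups in the lower direction, as 3.47% of all genes did.

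These counts depended on the tool and on single libraries. DESeq2 called the same 6 genes past an FDR of 0.25, 15% of the 40 where it called 6.36% of all genes. Without control replicate 1, edgeR called 8 of the 40 (against 10.2% of all genes), of which 7 were higher and 1, Slc17a6, was lower. With SAP97-cKO replicate 1 left out instead it called 5 (12.5%, against 4.32%), all higher. At an unadjusted p under 0.05 there were 12 in the first of these fits, where 16.6% of all genes were called, and 20 in the other, where 13.6% were. There were 3 when the third control library was left out (8.17% of all genes), 3 when the third SAP97-cKO library was (7.65%) and 2 when the fourth SAP97-cKO library was (7.07%).

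**Figure D2:**
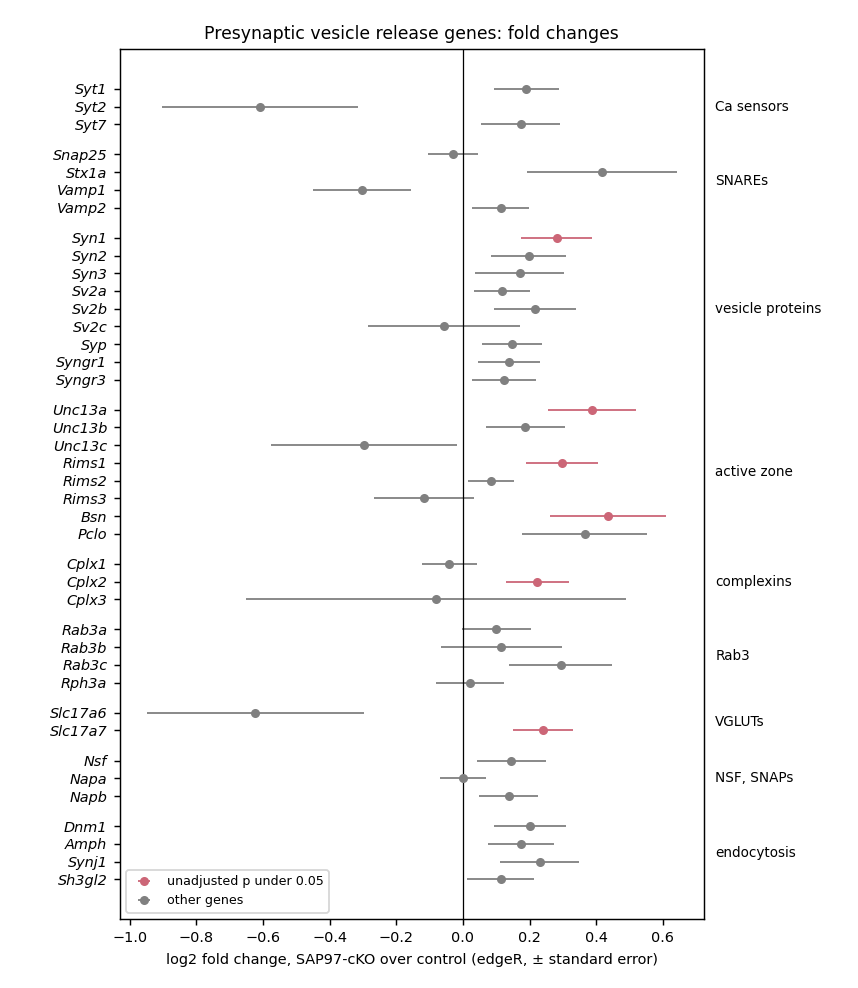
Log2 fold change of SAP97-cKO over control for each of the 40 genes, by role, with bars of 1 standard error from the edgeR fit, a line at 0 and the 6 genes at an unadjusted p under 0.05 in red. Values run from -0.62 for Slc17a6 to 0.43 for Bsn, with 31 genes above 0 and none past an FDR of 0.25.

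The libraries of 1 group did not move together. Relative to the control mean, the median log2 level of the 40 genes was 0.08, 0.01, -0.04 and -0.11 in control replicates 1 to 4. In SAP97-cKO replicates 1 to 4 it was -0.04, 0.21, 0.14 and 0.21. SAP97-cKO replicate 1 therefore lay among the controls, and the other 3 above them all. SAP97-cKO replicate 4 had the highest value of 18 genes and SAP97-cKO replicate 2 of 12. Control replicate 4 had the lowest value of 18 genes and SAP97-cKO replicate 1 of 8. SAP97-cKO replicate 2 also stood apart in regional markers. Its dentate granule cell sum was 8902 normalized counts against 11957 to 20490 in the other libraries, its neocortical sum 14769 against 10042 to 12342, and its striatal sum 8014 against 3851 to 5923. CA1 markers had higher means in SAP97-cKO libraries in 6 of 7 genes, with sums of 29870 to 35907 in controls and 34389 to 41870 in SAP97-cKO libraries.

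Oligodendrocyte marker sums lay in a like order turned around. They were 225659, 335269, 305058 and 360946 normalized counts in control replicates 1 to 4, and 316241, 186996, 191244 and 174704 in SAP97-cKO replicates 1 to 4. The 3 SAP97-cKO libraries with the highest medians of release genes thus had the lowest sums, and SAP97-cKO replicate 1 had a sum within the control range. In bulk tissue, fewer cells of a type and less RNA per cell cannot be told apart, and the part of tissue composition in the release genes was not tested.

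**Figure D3:**
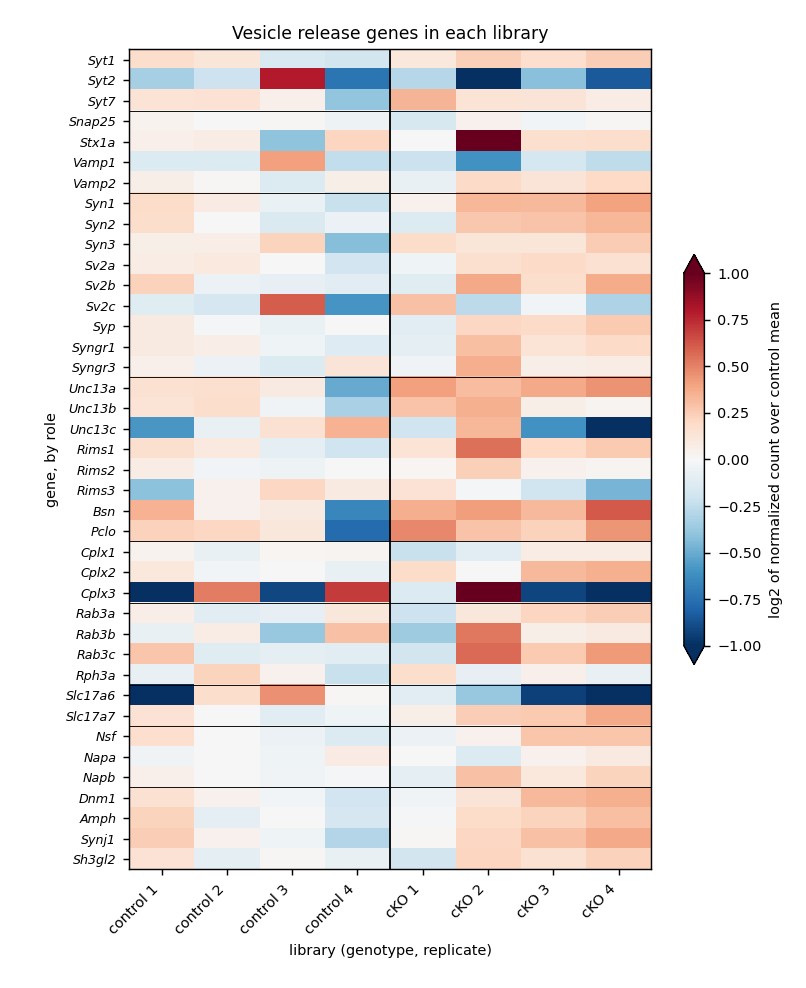
Heat map of the log2 level of each of the 40 genes (rows, by role) in each of the 8 libraries (columns) relative to the control mean, red above and blue below, with colours ending at 1 in either direction. SAP97-cKO replicates 2, 3 and 4 have medians of 0.21, 0.14 and 0.21, while SAP97-cKO replicate 1 has -0.04 and control replicate 4 has -0.11.

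Active zone and priming proteins held 3 of the 6 genes at an unadjusted p under 0.05, among 8 measured (37.5%, against 11.7% of all genes). Of the 8, 6 were higher (75%, against 47.2% of all genes). Their median log2 fold change was 0.24, and none passed the FDR. Unc13a (chromosome 8, 71624417 to 71671757, GRCm38) encodes Munc13-1, which opens syntaxin so that vesicles become ready to fuse. Its normalized counts were 12225, 12300, 11738 and 7770 in control replicates 1 to 4 and 14619, 13610, 14352 and 15039 in SAP97-cKO replicates 1 to 4. Every SAP97-cKO library lay above every control, and control replicate 4 lay far below the other controls. Unc13a means were 11008 ± 2174 and 14405 ± 601 (SD, n = 4 each), a ratio of 1.31 and a log2 fold change of 0.39 (SE 0.13) with an edgeR adjusted p of 0.353. The exact two-sided permutation test gave p = 0.0286, the smallest that the 70 assignments of 8 libraries allow. Groups of 4 that do not overlap always give this value, so it adds no support beyond the lack of overlap. Without control replicate 4 the log2 fold change of Unc13a was 0.25. Exons of Colgalt1 on the opposite strand overlap 3.92% of Unc13a's exon bases, and whether counting used strand is not given in the sources used here.

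Bsn (chromosome 9, 108096022 to 108190384) encodes bassoon, a very large scaffold of the active zone. It had 18081, 14621, 15167 and 9031 normalized counts in controls and 18280, 19049, 17841 and 21715 in SAP97-cKO libraries. Control replicate 1 reached into the SAP97-cKO range, and control replicate 4 was again lowest. Bsn had a log2 fold change of 0.43 (SE 0.17, edgeR adjusted p = 0.392), and it was 0.27 without control replicate 4.

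Rims1 (chromosome 1, 22286251 to 22805994) encodes RIM1, which ties vesicles and calcium channels together at the active zone. Counts were 2790, 2662, 2341 and 2171 in controls and 2744, 3653, 2857 and 2992 in SAP97-cKO libraries, so that only control replicate 1 and SAP97-cKO replicate 1 crossed. Rims1 had a log2 fold change of 0.30 (SE 0.11, edgeR adjusted p = 0.368). Pclo, the scaffold piccolo that is related to bassoon, had a log2 fold change of 0.36 (SE 0.19) and counts from 4472, in control replicate 4, to 10653. Without that library it was 0.18. Unc13b, Rims2, Rims3 and Unc13c had log2 fold changes of 0.19, 0.08, -0.12 and -0.30, with none at an unadjusted p under 0.05.

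Bsn, Pclo and Unc13a have long transcripts, and control replicate 4 was low in long transcripts in general. The part of length in the low values of these genes there was not tested. The median exon length was 6911 bases over the 40 genes and 4261 over all genes tested. With each library's trend on length taken out, an alternative added after seeing the data, log2 fold changes were 0.32 for Unc13a, 0.35 for Bsn and 0.25 for Pclo. In that fit 7 genes were higher and 2 lower at an unadjusted p under 0.05 (22.5% of the 40, against 12.6% of all genes), none passed the FDR, and the median over the 40 was 0.14.

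Vesicle proteins were higher in 8 of 9 genes (88.9%, against 47.2% of all genes), with a median log2 fold change of 0.15. Syn1 (chromosome X, 20860511 to 20921004), synapsin I, tethers vesicles to one another and to actin in the reserve pool. Its normalized counts were 19782, 18455, 16625 and 14954 in controls and 17951, 21988, 21896 and 23038 in SAP97-cKO libraries. SAP97-cKO replicate 1 lay within the control range and the other 3 above it. Means were 17454 ± 2110 and 21218 ± 2239 (SD, n = 4 each), with a log2 fold change of 0.28 (SE 0.11, edgeR adjusted p = 0.376). Syn2, Syn3, the glycoproteins Sv2a and Sv2b, Syp, Syngr1 and Syngr3 had log2 fold changes from 0.12 to 0.22, and Sv2c had -0.06. Exons of Timp3 on the opposite strand overlap 14.1% of the exon bases of Syn3. Timp3 had 23067 counts over all libraries, while Syn3 had mean normalized counts of 339 in controls and 381 in SAP97-cKO libraries. Whether Timp3 reads were counted for Syn3 was not tested. An antisense gene, Gm14703, with 63 counts over all libraries, overlaps 16.8% of the exon bases of Syp.

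Complexins, which clamp and assist the SNARE complex, differed among themselves. Cplx2 (chromosome 13, 54371349 to 54383917) had 65194, 59364, 60265 and 57545 normalized counts in controls and 68836, 60692, 75800 and 77655 in SAP97-cKO libraries. SAP97-cKO replicate 2 lay within the control range and the other 3 above it. For Cplx2 the log2 fold change was 0.22 (SE 0.09, edgeR adjusted p = 0.402). Cplx1 and Cplx3 had values of -0.04 (SE 0.08) and -0.08 (SE 0.57).

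Vesicular glutamate transporters load glutamate into vesicles. Slc17a7 (chromosome 7, 45163949 to 45176142) encodes VGLUT1, the main form in hippocampal pyramidal and granule cells. It had 53470, 48415, 44636 and 46790 normalized counts in controls and 50408, 57201, 57976 and 62682 in SAP97-cKO libraries, and only SAP97-cKO replicate 1 lay within the control range. The log2 fold change was 0.24 (SE 0.09, edgeR adjusted p = 0.376). Slc17a6, which encodes VGLUT2 and is prominent in thalamic and other subcortical neurons, had the lowest fold change of the 40. Its counts were 695, 1619, 1973 and 1447 in controls and 1332, 1102, 751 and 537 in SAP97-cKO libraries, which overlap widely, with a log2 fold change of -0.62 (SE 0.33, edgeR adjusted p = 0.465), or -0.42 without control replicate 3.

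**Figure D4:**
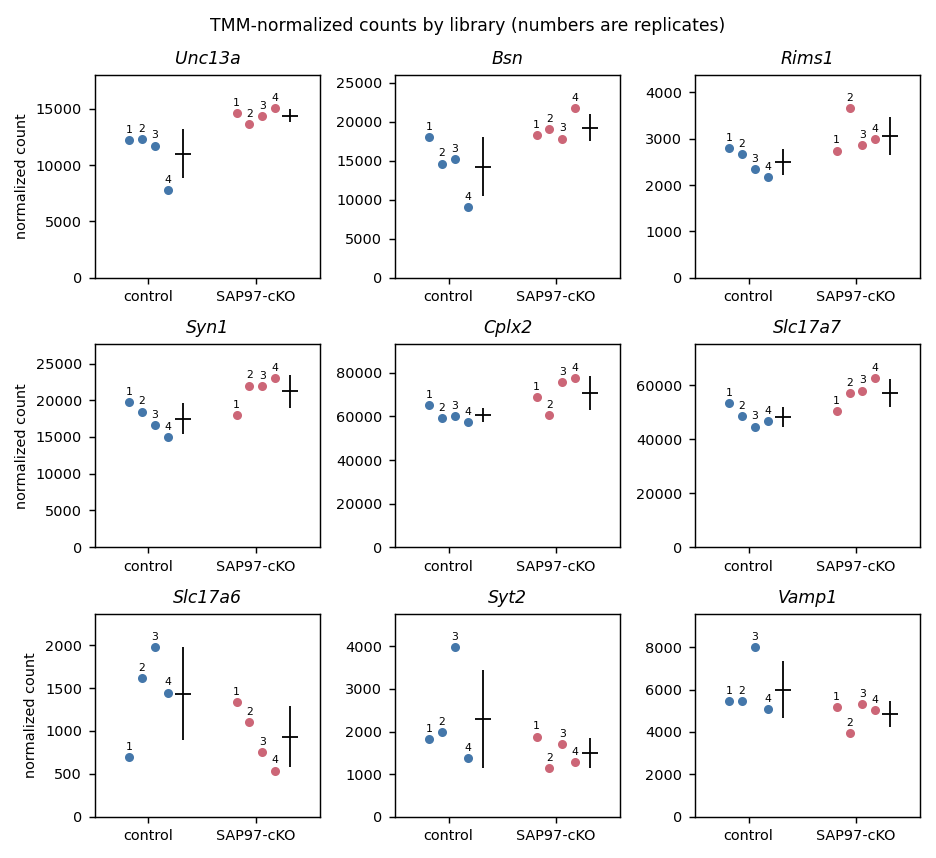
Normalized counts in each library for 9 genes (the 6 at an unadjusted p under 0.05, and Slc17a6, Syt2 and Vamp1), with a numbered point for each library and a cross at the group mean with a bar of 1 SD. Unc13a is the gene whose groups do not overlap, from 7770 to 12300 in controls and from 13610 to 15039 in SAP97-cKO libraries.

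Calcium sensors and SNARE proteins held no gene at an unadjusted p under 0.05. Syt2, a fast calcium sensor known from hindbrain synapses and from inhibitory terminals, had the smallest p of the sensors. Its normalized counts were 1825, 1983, 3974 and 1384 in controls and 1884, 1137, 1711 and 1281 in SAP97-cKO libraries, with control replicate 3 alone far above the rest. The log2 fold change was -0.61 (SE 0.29, edgeR adjusted p = 0.444), and it was -0.19 without control replicate 3. Syt1, the main sensor of fast release, and Syt7, a sensor of slower release, had log2 fold changes of 0.19 (SE 0.10) and 0.17 (SE 0.12), the latter 0.06 without control replicate 4.

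Vamp1, a vesicle SNARE, followed Syt2 in its pattern. Counts were 5471, 5469, 7986 and 5069 in controls and 5163, 3950, 5313 and 5024 in SAP97-cKO libraries, again with control replicate 3 alone on top. The log2 fold change was -0.30 (SE 0.15, edgeR adjusted p = 0.445), and it was -0.12 without that library. Control replicate 3 also had the highest value of Slc17a6 and Sv2c, the highest habenula sum (3236 against 1038 to 2338 normalized counts elsewhere) and the highest sum of 10 thalamic markers (9572 against 5016 to 6519). Pvalb, a calcium buffer of fast inhibitory interneurons, was also highest there, at 2952 normalized counts against 1101 to 2047 elsewhere, while the sum of the 10 interneuron markers was not (43909, in a range of 41060 to 50298). Their part in these genes was not tested. Vamp2, the main vesicle SNARE, Stx1a and Snap25 had log2 fold changes of 0.11 (SE 0.08), 0.42 (SE 0.22) and -0.03 (SE 0.08). For Stx1a, syntaxin 1A, SAP97-cKO replicate 2 had 6867 counts and the other 7 libraries 2470 to 3800, and without it the log2 fold change was 0.11.

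Rab3 proteins are small GTPases of the vesicle surface. Rab3a, Rab3b, Rab3c and their effector gene Rph3a had log2 fold changes from 0.02 to 0.29, all above 0, though Rph3a was at -0.02 without library scaling. Rab3c had the smallest p, with 25293, 19226, 19632 and 19346 normalized counts in controls and 18372, 30923, 24987 and 28070 in SAP97-cKO libraries. Its lowest value was thus in SAP97-cKO replicate 1 and its highest in SAP97-cKO replicate 2. On the log2 scale the difference was 0.29 (SE 0.15, edgeR adjusted p = 0.469), or 0.19 without SAP97-cKO replicate 2.

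SNARE disassembly rests on the ATPase NSF and its adaptors, alpha-SNAP (Napa) and beta-SNAP (Napb). Napb had the smallest p of the 3, with 26787, 25793, 25202 and 25648 normalized counts in controls and 24170, 31683, 27829 and 30109 in SAP97-cKO libraries. Control values were close together and SAP97-cKO replicate 1 lay below them all. On the log2 scale the difference was 0.14 (SE 0.09, edgeR adjusted p = 0.539), or 0.08 without SAP97-cKO replicate 2, while Nsf had 0.14 (SE 0.10) and Napa 0.00 (SE 0.07).

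Endocytosis genes were higher in 4 of 4, where 47.2% of all genes were higher, with a median log2 fold change of 0.19. Synj1, the lipid phosphatase synaptojanin that helps strip clathrin coats, had the smallest p. It had 22639, 19654, 18574 and 15603 normalized counts in controls and 19303, 22048, 23448 and 24878 in SAP97-cKO libraries, so that control replicate 1 lay above 2 of the SAP97-cKO libraries. The log2 fold change was 0.23 (SE 0.12, edgeR adjusted p = 0.459), or 0.14 without control replicate 4. Dnm1, the fission GTPase dynamin 1, Amph and Sh3gl2 had 0.20 (SE 0.11), 0.18 (SE 0.10) and 0.11 (SE 0.10).

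Related genes among the 40 were also compared as shares within a library, in 9 families. Each share is the level per kilobase of 1 gene over the sum of the related genes compared, itself included. Cplx2 made up 58.0%, 57.6%, 56.4% and 55.1% of Cplx1 and Cplx2 in controls and 63.5%, 58.7%, 61.0% and 61.5% in SAP97-cKO libraries. The groups did not overlap, at 56.7% ± 1.31 and 61.2% ± 1.97 (SD, n = 4 each). The exact two-sided permutation test gave p = 0.0286, the smallest possible, as any share without overlap does, and 0.257 when adjusted over the 9 shares. Leaving out each library in turn gave a difference of 3.64 to 5.24 percentage points. Cplx1 has 2189 exon bases and Cplx2 4928. The lowest share was in control replicate 4, which was low in long transcripts. The highest was in SAP97-cKO replicate 1, where long genes lay 0.12 log2 units above short ones. The part of length in this share was not tested.

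The share of Slc17a6 was 2.93% ± 1.22 in controls and 1.65% ± 0.750 in SAP97-cKO libraries (exact permutation p = 0.114, adjusted 0.343). Syt2 made up 4.66% ± 2.56 and 2.72% ± 0.734 of Syt1 and Syt2, and Vamp1 6.30% ± 1.74 and 4.79% ± 0.845 of Vamp1 and Vamp2. Control replicate 3 had the highest of both, 8.49% and 8.88%, and without it the differences went from -1.95 to -0.67 and from -1.51 to -0.65 percentage points. Unc13c, the form most known from cerebellum, had 15.1% ± 5.98 and 9.62% ± 3.88 of the Unc13 family, and Rims3 47.4% ± 6.45 and 41.5% ± 5.04 of the Rims genes. Without control replicate 4 the difference for Unc13c went from -5.48 to -2.74 points, and without control replicate 3 that for Slc17a6 went from -1.29 to -0.86. For Sv2c, Syn3 and Rab3b the group means differed by 0.29, 0.01 and 0.29 percentage points, lower in SAP97-cKO libraries.

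**Figure D5:**
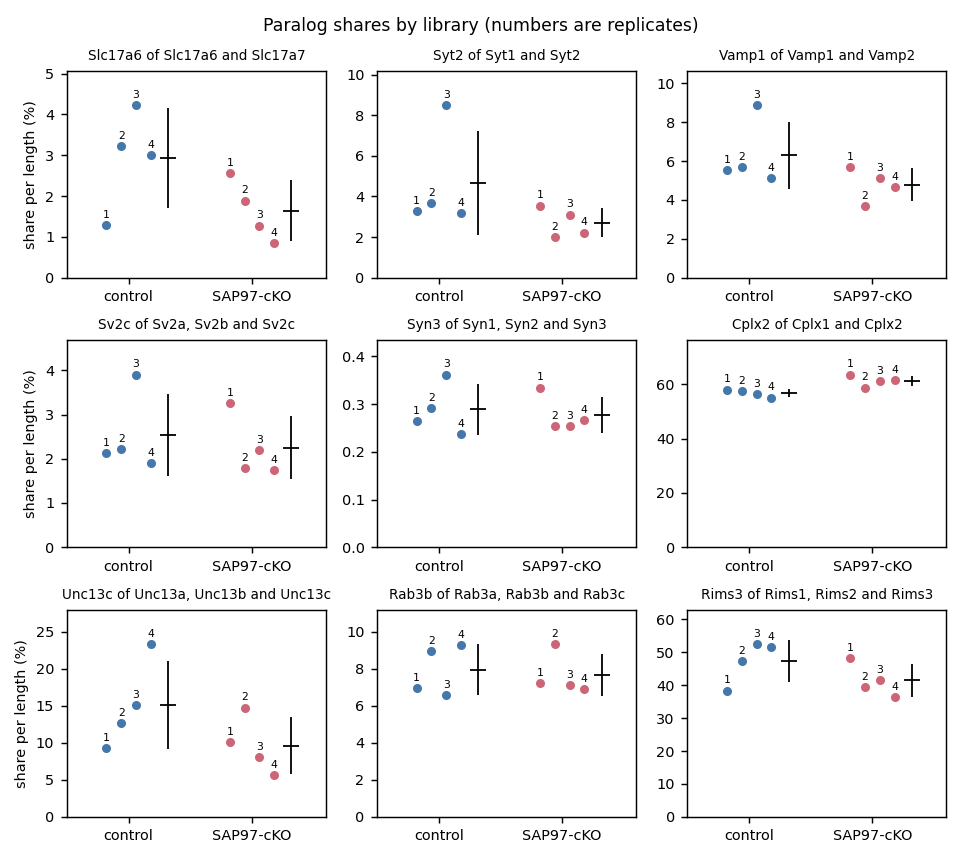
Share of 1 gene within each of 9 families, in percent of the summed level per kilobase, with a numbered point for each library and a cross at the group mean with a bar of 1 SD. Cplx2 runs from 55.1% to 58.0% in controls and from 58.7% to 63.5% in SAP97-cKO libraries, and is the share whose groups do not overlap.

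Another 76 presynaptic genes were listed for context, of which 75 passed the filter (Slc18a3, the vesicular acetylcholine transporter, did not). None passed the FDR of 0.25, 53 were higher (70.7%, against 47.2% of all genes) and 22 lower. The median log2 fold change was 0.09, against -0.01 over all genes. At an unadjusted p under 0.05, 8 were higher and 2 lower, which is 13.3% of the 75 against 11.7% of all genes. Active zone genes of this list were higher in 13 of 14 (92.9%), other SNAREs and their regulators in 10 of 12 (83.3%), and other endocytosis genes in 11 of 20 (55%). Smallest in p among those higher was Ppfia3, the active zone scaffold liprin-alpha-3, at 5974, 5984, 5533 and 5390 normalized counts in controls and 6776, 6504, 6485 and 6790 in SAP97-cKO libraries. The groups did not overlap, and the log2 fold change was 0.21 (SE 0.06, edgeR adjusted p = 0.331).

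Cacna1b, the N-type calcium channel, had a log2 fold change of 0.39 (SE 0.14) and Ap2a1, a clathrin adaptor subunit, 0.20 (SE 0.08). Syngr2, a synaptogyrin found outside neurons as well, was lowest in p of those lower, at 303, 443, 337 and 326 normalized counts in controls and 271, 250, 256 and 211 in SAP97-cKO libraries. Its groups did not overlap, with a log2 fold change of -0.51 (SE 0.14, edgeR adjusted p = 0.316). Sypl, a synaptophysin-like gene of many tissues, had -0.26 (SE 0.09).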

How the data were processed

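RNA was sequenced from 4 control and 4 SAP97-cKO male hippocampi, 1 mouse per library. The authors aligned reads with STAR 2.5.3a to mm10 (GRCm38.p5), removed ribosomal and mitochondrial reads, resampled libraries to a common depth with the PORT pipeline, and deposited whole-number counts per Ensembl gene, so totals do not show the original depth. The table's own fold change, p-value and q-value columns hold the authors' comparison and were not used. Strand use in counting is not given in the sources used here.

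Counts were tested with edgeR 4.0.16 (R 4.3.3): TMM scaling, filterByExpr by group (minimum count 10, total 15), glmQLFit and glmQLFTest, and Benjamini-Hochberg adjustment over 16251 genes (9583 removed), with the study's FDR of 0.25. The design has 2 groups and no covariate. Standard errors were the log2 fold change over the root of F. Normalized counts were scaled to the mean effective library size. Single values were tested by exact two-sided permutation over 70 assignments. Exon lengths came from GENCODE M21. Alternatives were limma-voom 3.58.1 (the study's test), DESeq2 1.42.0, other scalings and filters, a replicate block and leaving out each library. The length offset (a smooth trend per library, span 0.3) and leaving out control replicates 3 and 4 together were added after seeing the data.

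The 40 genes, the other lists and the tests were chosen with earlier results of these data known. Described in full were genes past the FDR, at an unadjusted p under 0.05 or with groups that do not overlap, and otherwise the gene of smallest p in each role group. For levels the highest and lowest gene of each role were named, and of the other presynaptic genes those past the FDR or, failing that, the 3 of smallest p in each direction at an unadjusted p under 0.05. Slc17a6, Pclo, Stx1a and the promoters shown were singled out after their values were seen.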

Additional observations from a re-analysis of the deposited data

Results flagged for a closer look

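A library was flagged where it stood far from the other 3 of its group by Dixon's criterion (the gap to its nearest neighbour over the group's range), which chance meets in about 5% of groups. It was met in 9 of 80 groups of gene values and 5 of 18 groups of shares. In normalized counts, control replicate 4 was lowest for Unc13a at 7770 and for Pclo at 4472. Control replicate 1 was highest for Sv2b at 24397 and for Rab3c at 25293, and control replicate 2 lowest for Cplx1 at 19447. Control replicate 3 was highest for Vamp1 at 7986. SAP97-cKO replicate 2 was highest for Stx1a at 6867 and for Rims2 at 1825, and SAP97-cKO replicate 1 lowest for Syn2 at 27245. Among shares, control replicate 3 was highest for Syt2 at 8.49%, Vamp1 at 8.88% and Sv2c at 3.90%, SAP97-cKO replicate 1 for Syn3 at 0.334% and SAP97-cKO replicate 2 for Rab3b at 9.32%. Why these libraries stood apart was not tested.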

How the results depend on the processing

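The 48 genes past an FDR of 0.25 became 1033 with DESeq2, 95 without scaling, 104 without a filter, 6 without control replicates 3 and 4 together, 0 at an FDR of 0.05 (1907 at an unadjusted p under 0.05 by edgeR and 2047 by DESeq2, which had 156 genes at an FDR of 0.05), and 0 to 1675 when each library was left out. Of the 40 genes, 6 passed with DESeq2 and 0 to 8 when each library was left out. Those at an unadjusted p under 0.05 numbered 12 without a filter (30% of the 40, against 9.49% of all genes), 1 without control replicates 3 and 4 (Unc13a; 2.5% against 7.03%) and 2 to 20 when each library was left out. Their median log2 fold change was 0.09 without control replicates 3 and 4, 0.10 without scaling and 0.11 to 0.21 when each library was left out.

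Signs turned for 9 of the 40 genes, none of which was at an unadjusted p under 0.05 with all 8 libraries. Napa was at -0.001 with limma-voom, and without scaling Rph3a was at -0.0234 and Napa at -0.0463. With the length offset Cplx1 was at 0.0134. Without control replicates 3 and 4, Sv2c was at 0.0873, Unc13c at 0.0088, Rims3 at 0.0524, Cplx3 at 0.0335 and Rph3a at -0.0583. When each library was left out, the log2 fold change ran from -0.055 to 0.017 for Snap25, -0.2083 to 0.2321 for Sv2c, -0.0788 to 0.0212 for Cplx1, -0.7709 to 0.2536 for Cplx3, -0.0546 to 0.2469 for Rab3b, -0.0462 to 0.103 for Rph3a and -0.0268 to 0.0451 for Napa. Differences in shares ran from -0.6299 to 0.163 points for Sv2c, -0.0312 to 0.0121 for Syn3 and -0.8551 to 0.1575 for Rab3b. The cause was not tested.

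Libraries were not treated as paired by replicate number, since deviations of same-numbered libraries correlated at -0.06, 0.20, 0.09 and 0.26, not all above 0.1. Control replicate 1 correlated best with SAP97-cKO replicate 4, while control replicates 2, 3 and 4 each correlated best with the SAP97-cKO library of the same number. Pairing is thus not settled by these values. All 8 choroid plexus markers nevertheless ranked in the same order of replicate number in both groups. With the replicate block, 256 genes and 0 of the 40 passed the FDR, and Napa was at -0.001. At an unadjusted p under 0.05 there were 7 of the 40 (17.5%, against 10.8% of all genes), 5 higher and 2 lower. They were Bsn, Pclo, Rims1, Syt2, Unc13a, Unc13b and Vamp1, so Syn1, Cplx2 and Slc17a7 were no longer among them.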
